A study of Mus musculus with 4 samples.

Results

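Type IA neurons of the mouse spiral ganglion were ordered by the share of their RNA that came from the mitochondrial genome, and the cells with the highest and lowest shares were compared. For each of the 2384 cells that the authors' deposited annotation calls type IA, the share is the percentage of raw unique molecular identifiers (UMIs, 1 per captured molecule) that fall on the 13 gene symbols starting with mt-. In each of 4 mice the type IA cells were ordered by this share and split into 4 bins of nearly equal cell number. The bin with the highest share, called mt-high here, was set against the bin with the lowest share, called mt-low. The bins held 106, 206, 151 and 131 cells per side in mice 1 to 4, so 594 cells stood on each side and 1188 of the 6713 cells of the series were used. Both sides were chosen by the mt- UMIs and the other UMIs of each cell, so the mt- genes were removed before UMIs were summed per mouse and side, and mt- genes and depth are described below without a test.

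The animals were wild-type males of the CBA/CaJ strain, aged 9 weeks and untreated. Their temporal bones were dissected to the modiolus, the bony core of the cochlea, with adjoining limbus, sulcus and organ of Corti tissue, and both ears of a mouse went into 1 library. Collagenase IV and papain loosened the tissue in steps of 30 min at 37 °C, and 2.5 h passed between death and droplet capture (10x Genomics v2 chemistry, which counts the 3′ ends of polyadenylated RNA). The libraries held 1238, 2232, 1720 and 1523 annotated neurons, with 20621487, 27309045, 23490275 and 15151343 UMIs in mice 1 to 4. Both sides of the comparison are cells of the same animals from the same droplet captures, so they share the handling of the tissue. The libraries shared only 3 to 6 cell barcodes per pair.

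Spiral ganglion neurons carry sound information from hair cells to the brainstem. Type I neurons contact inner hair cells, and the calretinin-rich type IA subtype has been linked to fibres with high spontaneous firing, which place a steady demand on ATP for ion pumping. The mitochondrial genome encodes a small set of respiratory chain subunits, while the other subunits, the mitochondrial ribosome and the import machinery are made from nuclear genes. The share of mitochondrial RNA per cell is a common measure of cell quality in droplet data, and it also differs between cell types with their mitochondrial content.

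The share that defined the sides had medians of 22.6%, 20.96%, 21.6% and 24.2% in mt-high cells of mice 1 to 4, and 6.68%, 5.87%, 5.55% and 6.80% in mt-low cells. The lowest mt-high cells had 14.66%, 13.01%, 15.69% and 18.15%, just above the next cells outside at 14.65%, 13.00%, 15.64% and 18.01%. The highest mt-low cells had 7.97%, 7.26%, 7.29% and 8.17%, and the next cells outside had 8.08%, 7.28%, 7.29% and 8.17%. The cuts therefore fell within a continuous range and not at a gap. The highest single cell of each mouse reached 49.5%, 48.6%, 47.9% and 43.1%.

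The sides differed in depth far more than in mitochondrial UMIs. The median mt-high cell held 5368.5, 4114.5, 5477 and 3344 non-mitochondrial UMIs in mice 1 to 4, against 20325.5, 14173, 14937 and 10969 in the median mt-low cell. The mt-high side was lower in 4 of 4 mice, by 2.73-fold to 3.79-fold, with a log2 ratio of -1.72 ± 0.20 (SD, n = 4 mice). Median mitochondrial UMIs per cell were 1885, 1201, 1558 and 1123 in mt-high cells, against 1441, 869.5, 809 and 753 in mt-low cells, a log2 ratio of 0.59 ± 0.25 (SD, n = 4 mice). A high share thus went mainly with few other UMIs and less with an excess of mitochondrial ones. Genes detected per cell had medians of 2759.5, 2312.5, 2810 and 2063 in mt-high cells and 5472, 4497, 4648 and 4019 in mt-low cells. The non-mitochondrial UMIs enter the share as its denominator, so these depths describe the sides and were not tested. Summed over cells, mt-high cells gave 686140, 1061033, 844771 and 480726 non-mitochondrial UMIs, and mt-low cells gave 2185209, 2967164, 2259680 and 1514581, so levels on the mt-high side rest on fewer molecules.

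**Figure D1:**
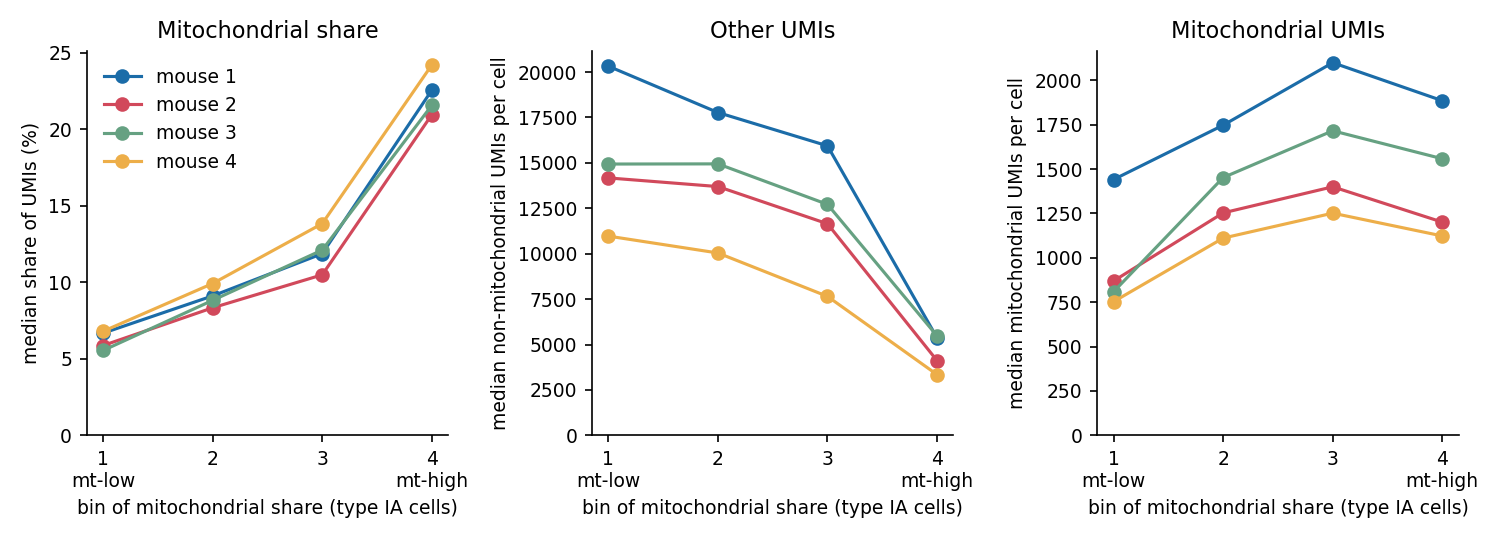
Median mitochondrial share (%), non-mitochondrial UMIs per cell and mitochondrial UMIs per cell in the 4 bins of type IA cells ordered by share, with a line for each mouse. Mitochondrial UMIs were highest in bin 3 of every mouse, while the other UMIs fell most between bins 3 and 4.

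Over the 4 bins, mitochondrial UMIs per cell increased up to bin 3, where medians were 2099, 1400, 1715.5 and 1251.5 in mice 1 to 4, and they were lower again in the mt-high bin. Non-mitochondrial UMIs still had medians of 15939, 11648.5, 12715.5 and 7650.5 in bin 3, and most of their drop lay between bin 3 and the mt-high bin. The plot of share and UMIs by bin shows this in each mouse.

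All 13 mitochondrial genes were captured on both sides. UMIs per cell were higher in mt-high cells in 4 of 4 mice for 12 genes, and in 3 of 4 mice for mt-Atp8, which encodes a small subunit of ATP synthase. The excess was uneven, with ratios of mt-high to mt-low UMIs per cell from 1.08 to 1.90. mt-Nd1, a subunit of complex I, gave 246, 163, 201 and 143 UMIs per cell in mt-high cells of mice 1 to 4, against 152, 81.2, 85.3 and 77.4 in mt-low cells. It took 12.7% ± 0.391 of mitochondrial UMIs on the mt-high side and 10.1% ± 0.482 on the mt-low side (SD, n = 4 mice). mt-Co1, the catalytic subunit of cytochrome c oxidase, took 12.1% ± 0.502 on the mt-high side and 14.6% ± 0.816 on the mt-low side, lower in 4 of 4 mice. mt-Atp6, another subunit of ATP synthase, took 19.0% ± 0.702 and 21.1% ± 1.10 in the same order, also lower in 4 of 4 mice. mt-Co3, the most abundant of them, took 27.7% ± 1.08 on the mt-high side and 27.5% ± 1.22 on the mt-low side, with the higher share on the mt-high side in 2 of 4 mice.

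Markers describe both sides here and are no independent check, since the cells were picked by their label. The 4 type IA markers (Calb2, Rxrg, B3gat1 and Pcdh20) together reached 7803 to 10387 CPM in mt-high cells and 11120.4 to 14041 CPM in mt-low cells, against means of 2775 CPM in all type IB cells and 802 CPM in all type IC cells. CPM here are the counts of a gene scaled to a common total of non-mitochondrial UMIs per sum. They lack the TMM scaling factors that CPM of single genes carry further below. Those factors ran from 1.04 to 1.09 for mt-high and from 0.92 to 0.95 for mt-low cells. They would lower mt-high values relative to mt-low ones, so the direction of small differences between marker sums depends on this scaling. Nearly all of the type IA sum was Calb2, with a mean of 8849 of 9441 CPM in mt-high cells and 12097 of 12485 CPM in mt-low cells. The type IB markers (Calb1, Ttn, Lrrc52 and Lypd6) summed to 21.9 to 39.5 CPM on the mt-high side and 14.2 to 19.9 CPM on the mt-low side, against 192 CPM in type IB cells. The type IC markers (Lypd1, Runx1, Pou4f1 and Grm8) summed to 152 to 192 CPM on the mt-high side and 93.8 to 172 CPM on the mt-low side, against 3513 CPM in type IC cells. Without the TMM factors, both sums of the other subtypes were higher in mt-high cells in 4 of 4 mice, a direction that depends on the scaling. Both stayed far below the level of their own subtype. None of the 12 subtype markers was without UMIs on either side.

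RNA of other cell types was present on both sides. The 6 satellite glia markers summed to 1295 to 1741 CPM in mt-high cells and 1158 to 1557 CPM in mt-low cells. Without the TMM factors this sum was higher on the mt-high side in 4 of 4 mice, a direction that depends on the scaling. The 6 Schwann cell markers summed to 2677 to 3071 CPM in mt-high cells and 2912 to 3439 CPM in mt-low cells, lower on the mt-high side in 4 of 4 mice. Of the satellite glia markers none was called higher and 2 were lower, among them Kcnj10 (-0.56), and of the Schwann cell markers Mag was higher and 4 were lower. Fibroblast and bone markers summed to 208 to 322 CPM in mt-high and 157 to 232 CPM in mt-low cells. This sum was also higher in 4 of 4 mice only without the TMM factors, and none of 4 tested members was called. Supporting cell, endothelial and macrophage lists stayed at or below 131 CPM on either side. The 4 red blood cell markers reached 472 to 2569 CPM on the mt-high side and 424 to 1713 CPM on the mt-low side. The 4 hair cell markers found in the files stayed between 1.46 and 6.24 CPM on the mt-high side and between 0.915 and 3.96 CPM on the mt-low side, and 1 of them had no UMI in mt-high cells. The part of these cell types in the differences below was not tested, apart from the cells with glial UMIs. Cells with at least 3 UMIs of 2 satellite glia markers made up 23.6%, 24.3%, 19.2% and 14.5% of mt-high cells and 80.2%, 69.4%, 68.9% and 43.5% of mt-low cells, a share that moves with depth. With those cells left out before the bins were drawn, 1707 of 6559 tested genes were higher and 1627 lower. Log2 differences of genes called with all cells were then a median of 128% of those with all cells. The 2975 genes called with and without the cells left out all kept their direction.

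After removal of the mt- genes, 9722 genes passed the filter on low counts, and 2252 of them (23.2%) were higher and 2145 (22.1%) lower in mt-high cells (edgeR's quasi-likelihood test paired by mouse, Benjamini-Hochberg adjusted p under 0.05). Either way, 45.2% of genes were called, which is the background for every count below. The median log2 difference of all genes tested was 0.05, and 35.9% of genes had values of mt-high and mt-low cells that did not overlap over the 4 mice. All levels are relative to the non-mitochondrial UMIs of their own side, so a gene can be higher in CPM and have fewer UMIs per cell. Of the 9722 genes, 56 had more UMIs per cell in mt-high cells. In such sums, fewer cells with a transcript and less of it per cell cannot be told apart.

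Depth was then matched by drawing both sides within 5 bins of the non-mitochondrial UMIs per cell in each mouse. This left a log2 depth ratio of -0.10 ± 0.10 (SD, n = 4 mice) and narrowed the shares to medians of 12.7% to 18.8% in mt-high cells and 5.62% to 6.89% in mt-low cells. Because the sides were cut within each bin of depth, their shares overlapped in every mouse. The lowest mt-high cells had 8.38% to 10.07%, and the highest mt-low cells 14.8% to 18.3%. Of 10131 genes tested, 819 (8.08%) were then higher and 976 (9.63%) lower, or 17.7% in all. Of the 4386 genes called before and tested again, 1660 were called again, 1651 of them in the same direction. Their log2 differences were a median of 41.6% of those without matching. In the fit without matching, 51.2% of called genes were higher, and 70.9% when only library totals were used for scaling, which moved the median of all genes to 0.22. The matched fit had 45.6%. Values drawn within bins of depth are given below as depth-matched. Since depth is part of the share, matching it also narrowed the gap in share, and how much of the smaller differences comes from that was not tested. Thinning every cell to 3421 UMIs, which evens out counting depth but not the kind of cell, called 1268 (19.4%) of 6549 genes higher and 1258 (19.2%) lower, 38.6% in all, with a median of 96.9% of the log2 difference. It left out 23, 80, 38 and 68 mt-high cells and 0, 3, 1 and 3 mt-low cells of mice 1 to 4.

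The nuclear genes of the respiratory chain were lower in mt-high cells without exception. All 79 genes listed for complexes I to V were tested and all 79 fell, with a median log2 difference of -0.77 against 0.05 over all genes. The counts were 37 of 37 for complex I, 4 of 4 for complex II, 9 of 9 for complex III, 12 of 12 for complex IV with cytochrome c, and 17 of 17 for complex V. Their medians were -0.75, -0.56, -0.81, -0.85 and -0.74 in the same order. Over single mice, the median of all 79 genes ran from -0.61 in mouse 2 to -0.99 in mouse 4. Depth-matched, 67 of the 79 were lower and none was higher, with a median of -0.24. The nuclear subunits thus had a lower CPM. Their UMIs per cell are not set against those of the mitochondrially encoded subunits, because both kinds of UMIs chose the sides. Only 56 of the 9722 genes tested had more UMIs per cell in mt-high cells, so fewer UMIs per cell are not particular to these subunits.

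Cox6a1, a nuclear subunit of cytochrome c oxidase (chr5:115345642-115348981, mm10, minus strand), had 1371, 1610.2, 1342 and 1218 CPM in mt-high cells of mice 1 to 4, against 2654, 2933, 2954 and 2694 CPM in mt-low cells. No value of mt-high cells reached any value of mt-low cells. Its log2 difference was -1.02 ± 0.08 (SE; edgeR adjusted p = 3.10e-30), and depth-matched it was -0.31 (edgeR adjusted p = 1.94e-05). Usmg5, a small subunit tied to ATP synthase dimers (chr19:47083464-47090647, minus strand), had 853, 931, 687 and 850.0 CPM in mt-high cells, against 1746, 1663, 1839.8 and 1947 CPM in mt-low cells. Its log2 difference of -1.12 ± 0.08 (SE; edgeR adjusted p = 6.63e-35) was the lowest among the 79 genes, and its values did not overlap. The depth-matched value was -0.30 (edgeR adjusted p = 2.84e-05).

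Ndufab1, an acyl carrier protein that is also a subunit of complex I, averaged 611 ± 108 CPM in mt-high cells and 1228 ± 65.9 CPM in mt-low cells (SD, n = 4 mice, as for all means below). Uqcr11, a small subunit of complex III, averaged 740.0 ± 96.1 CPM in mt-high cells and 1462 ± 99.03 CPM in mt-low cells, a log2 difference of -0.98. Neither gene overlapped between sides. Sdha, the catalytic subunit of succinate dehydrogenase in complex II, differed least of the 4 complex II genes, at 399 ± 10.9 CPM in mt-high cells and 476 ± 29.1 CPM in mt-low cells and a log2 difference of -0.25 ± 0.08 (SE; edgeR adjusted p = 3.22e-03). Depth-matched, Sdha was at -0.05 (edgeR adjusted p = 6.33e-01). Cox4i1 and Ndufa4, both among the most abundant nuclear respiratory genes, had log2 differences of -0.78 and -0.82.

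**Figure D2:**
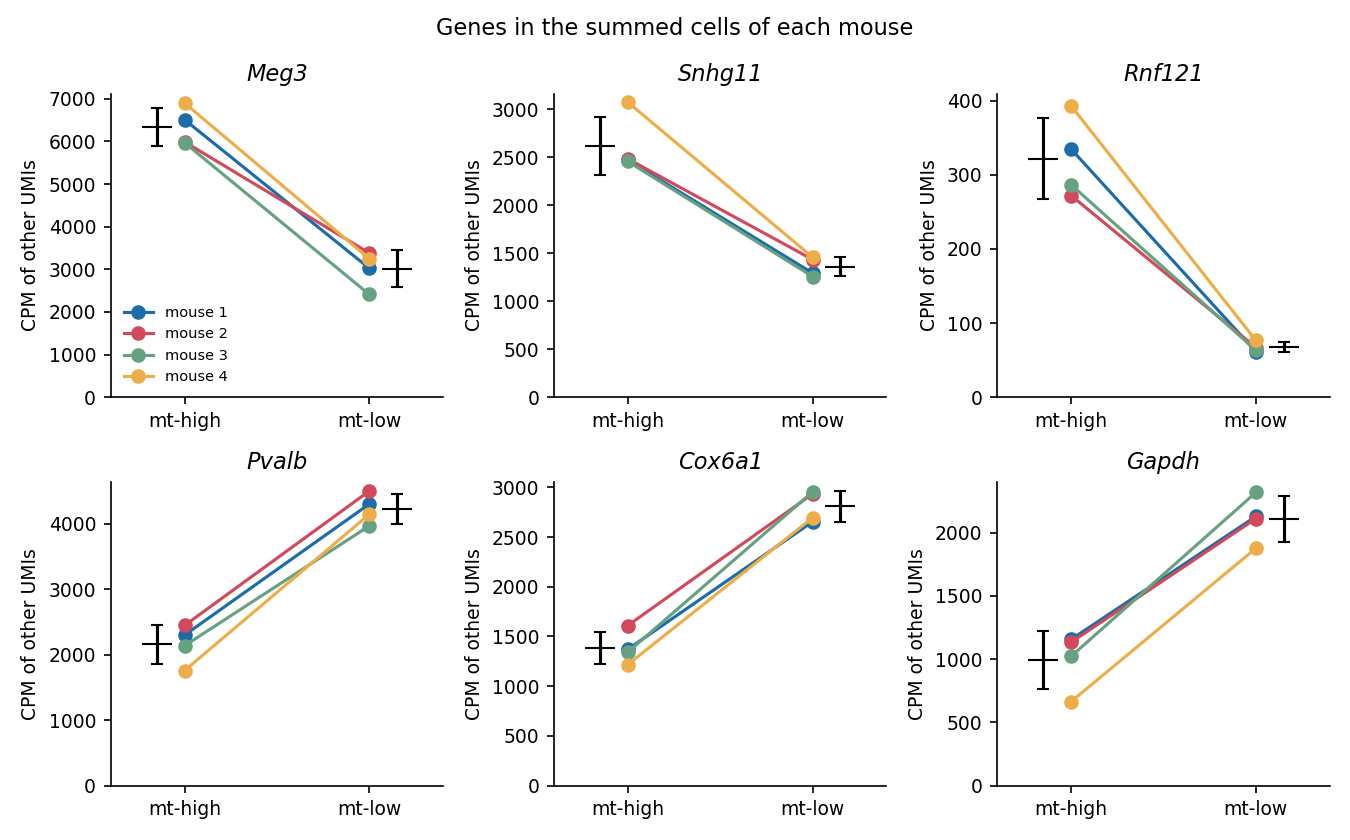
CPM of non-mitochondrial UMIs for Meg3, Snhg11, Rnf121, Pvalb, Cox6a1 and Gapdh in the mt-high and mt-low cells of each mouse, with a coloured line per mouse and black marks for mean ± SD (n = 4). Meg3, Snhg11 and Rnf121 were higher and Pvalb, Cox6a1 and Gapdh lower in mt-high cells of every mouse, with no overlap between sides.

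Since these genes moved together, their promoters were searched for GCGC, any base and TGCGC in a row, a core motif of nuclear respiratory factor 1, on both strands. RefSeq windows of 300 bases (250 before and 50 after the start, GRCm38.p6) were at hand for 67 of the 79 genes, and 18 of them (26.9%) held the motif in at least 1 window. It stood in a window of 1031 (13.2%) of the 7792 tested genes with a window, and of 1402 (5.19%) of the 27025 genes of the RefSeq table. Of 35 mitochondrial ribosomal protein genes with a window 14.3% held it, of 58 cytosolic ones 8.62%, and of the transcription, splicing and chromatin genes 0 of 24. A match describes letters in this window and is not a binding site. The promoters of Cox6a1 (chr5:115348909-115349208, minus strand) and Atp5k, a small ATP synthase subunit (chr5:108434350-108434649, minus strand), are shown 5′ to 3′ as examples of a gene that fell and holds the motif, with matches in capitals.
Cox6a1: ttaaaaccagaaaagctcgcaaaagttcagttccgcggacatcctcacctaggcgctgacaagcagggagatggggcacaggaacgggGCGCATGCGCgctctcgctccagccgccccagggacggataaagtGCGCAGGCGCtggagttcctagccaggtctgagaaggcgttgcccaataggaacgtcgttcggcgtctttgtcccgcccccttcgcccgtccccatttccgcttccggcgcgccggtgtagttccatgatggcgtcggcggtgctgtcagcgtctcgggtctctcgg
Atp5k: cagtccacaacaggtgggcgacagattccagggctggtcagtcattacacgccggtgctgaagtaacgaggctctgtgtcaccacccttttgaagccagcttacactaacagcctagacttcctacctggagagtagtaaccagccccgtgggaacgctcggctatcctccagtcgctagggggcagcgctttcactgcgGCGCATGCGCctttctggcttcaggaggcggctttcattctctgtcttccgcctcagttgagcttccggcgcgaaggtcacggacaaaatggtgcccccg
Atp5k had a log2 difference of -0.85 and was chosen for display after its value was seen.

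Genes that feed the respiratory chain fell as well, though not all. Of 16 tricarboxylic acid cycle genes 11 were lower and none higher, with a median of -0.42, or -0.16 depth-matched with 6 lower. Pdhb, of the pyruvate dehydrogenase complex, and Mdh2, mitochondrial malate dehydrogenase, had log2 differences of -0.75 and -0.72. Of 17 glycolysis and lactate genes 12 were lower and 2 higher, with a median of -0.52, or -0.20 depth-matched with 11 lower and 1 higher. Gapdh, the glycolytic glyceraldehyde phosphate dehydrogenase (chr6:125161715-125166467, minus strand), had 1155, 1133, 1022 and 664 CPM in mt-high cells, against 2128, 2110.3, 2317 and 1876 CPM in mt-low cells. Mouse 4 had the lowest value on each side, and the sides did not overlap. The log2 difference was -1.10 ± 0.08 (SE; edgeR adjusted p = 1.38e-33) and the depth-matched one -0.50 (edgeR adjusted p = 1.45e-13). Gapdh has many near-identical pseudogenes, and the sources used here do not say how the counting treated them. The 2 higher genes were transporters, named after their values were seen, Slc16a1 for lactate (0.51) and Slc2a3 for glucose (0.35).

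Antioxidant enzymes followed the same direction. Of 18 genes 13 were lower and 1 higher, with a median of -0.52, or -0.20 depth-matched with 8 lower and 1 higher. Gpx1, a glutathione peroxidase, had 133, 140.2, 133 and 126 CPM in mt-high cells, against 263, 294, 285 and 267 CPM in mt-low cells. The values of mt-high cells lay in a narrow range below all those of mt-low cells. The log2 difference was -1.06 ± 0.09 (SE; edgeR adjusted p = 1.11e-25), with -0.51 (edgeR adjusted p = 1.89e-10) depth-matched. Gpx4 and Prdx5, which reduce lipid and other peroxides, had -0.88 and -0.75. The higher gene, named after its value was seen, was Gclc (0.53), the catalytic subunit of glutathione synthesis.

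The genes that build and maintain mitochondria split by function. Of 40 mitochondrial ribosomal protein genes 38 were lower and none higher (median -0.67), and 28 were lower depth-matched (median -0.25). Of 21 import and chaperone genes 16 were lower and none higher (median -0.34), with 5 lower depth-matched. Timm8b and Tomm7, small parts of the inner and outer membrane import machinery, had log2 differences of -0.90 and -0.85. Mrpl1 and Mrps5, named after their values were seen, were the ribosomal ones not called. The list of calcium uptake genes and carriers had 9 of 15 lower and none higher (median -0.38), among them Smdt1, a regulator of the calcium uniporter, at -0.69. Depth-matched, 4 of the 15 were lower and none higher (median -0.15).

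Mitochondrial gene expression factors did not fall as a group. Of 18 tested genes (21 listed) 5 were higher and 2 lower, with a median of 0.05, the same as over all genes to 2 decimals. Ppargc1a, a coactivator that drives mitochondrial biogenesis, had 259, 289, 329 and 389 CPM in mt-high cells of mice 1 to 4, against 202, 199, 184 and 233 CPM in mt-low cells. Its values did not overlap, and its log2 difference was 0.62 ± 0.08 (SE; edgeR adjusted p = 1.39e-12), with 0.41 (edgeR adjusted p = 4.46e-07) depth-matched. Ppargc1b, its relative, was also higher (0.87), although at 24.6 and 13.1 CPM on the mt-high and mt-low side it rests on few UMIs, and depth-matched it was 0.41 (edgeR adjusted p = 1.91e-01). The other higher genes were Gabpa (0.76), Polg (0.40) and Lrpprc (0.36), the last 2 named after their values were seen. Slirp, which stabilises mitochondrial mRNA, was lower at -0.67 ± 0.08 (SE; edgeR adjusted p = 6.23e-13), and depth-matched it was -0.13 (edgeR adjusted p = 1.89e-01). Tfam, which packages mitochondrial DNA, and Nrf1, the factor whose motif is given above, did not pass the test, at -0.33 and 0.05, and were named after their values were seen.

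Genes of mitochondrial dynamics, transport and mitophagy went both ways. Of 18 tested genes (20 listed) 4 were higher and 8 lower, with a median of -0.09 that became 0.03 depth-matched. Mfn1, which fuses outer membranes, was higher at 0.65 ± 0.13 (SE; edgeR adjusted p = 5.12e-06), and Fis1 and Pink1, with roles in fission and mitophagy, were lower at -0.57 and -0.56. Bnip3, a mitophagy receptor, was lower at -0.73. The other higher genes, named after their values were seen, were the fission GTPase Dnm1l (0.56) and the transport adaptors Trak1 (0.44) and Trak2 (0.45). Depth-matched, Mfn1 was at 0.24 (edgeR adjusted p = 1.73e-01), and Fis1, Pink1 and Bnip3 were still lower.

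Cytosolic ribosomal protein genes fell almost as uniformly as the respiratory chain. Of 79 genes 78 were lower and none higher, with a median of -0.53, and 64 were lower depth-matched with a median of -0.22. Rpl10 averaged 347 ± 68.3 CPM in mt-high cells and 654 ± 68.6 CPM in mt-low cells, without overlap and with a log2 difference of -0.90 ± 0.08 (SE; edgeR adjusted p = 1.43e-24). Rpl27 and Rps21 had -0.94 and -0.85. Ribosomal protein genes have many near-identical pseudogenes, so single values of the family are uncertain. Of 22 proteasome and ubiquitin genes 16 were lower and 2 higher, with a median of -0.54, or -0.17 depth-matched. Psma2, a core proteasome subunit, and Uchl1, a neuronal ubiquitin hydrolase, had -0.86 and -0.81. The 2 higher genes, named after their values were seen, were the ubiquitin ligase Ube3a (0.70) and the deubiquitinase Usp9x (0.34).

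**Figure D3:**
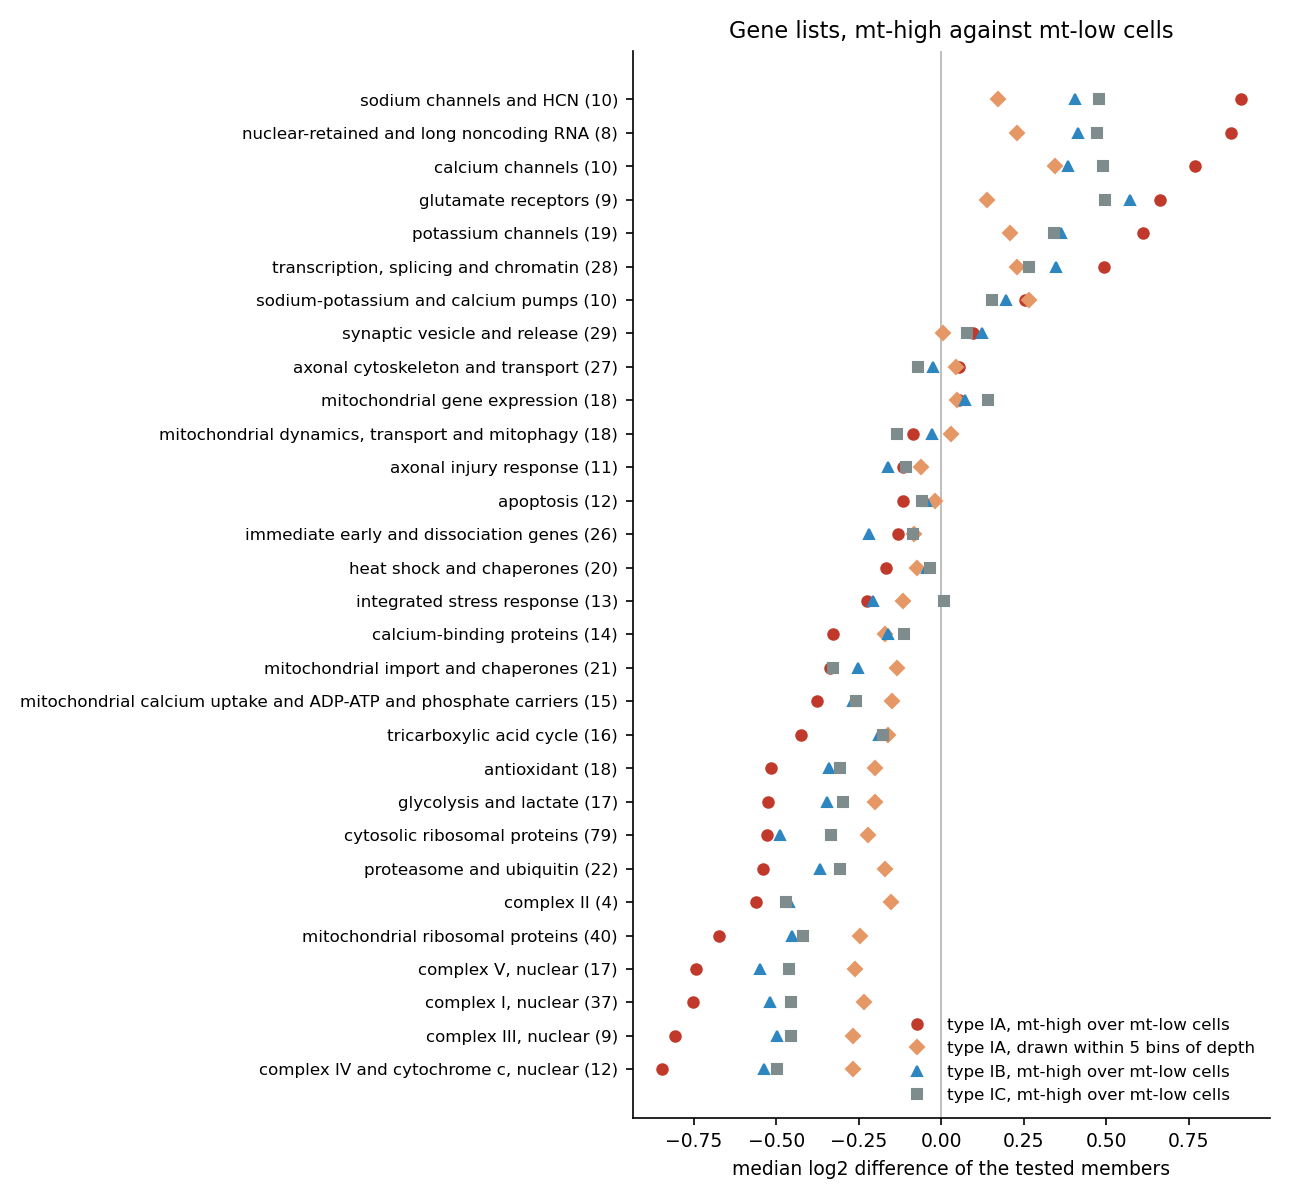
Median log2 difference of the tested members of each gene list (number tested in brackets), mt-high over mt-low cells, in type IA, in type IA depth-matched, and in types IB and IC. The respiratory chain lists lie at the low end, from -0.56 to -0.85 in type IA, and channel, glutamate receptor and noncoding RNA lists at the high end.

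The list of nuclear-retained and long noncoding RNAs stood at the other end. Of 8 tested members (12 listed) 5 were higher and none lower, with a median of 0.88, and 4 were higher depth-matched with a median of 0.23. Meg3, an imprinted noncoding RNA (chr12:109541001-109571726, plus strand), had 6508, 5989, 5969 and 6898 CPM in mt-high cells of mice 1 to 4, against 3022, 3379, 2409 and 3245 CPM in mt-low cells. It was the most abundant of the called higher genes, and its sides did not overlap. Its log2 difference was 1.08 ± 0.08 (SE; edgeR adjusted p = 8.45e-31), with 0.33 (edgeR adjusted p = 1.02e-05) depth-matched, while an mt-high cell held fewer Meg3 UMIs than an mt-low cell (33.7 and 42.04).

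Snhg11, a host transcript of small nucleolar RNAs that GENCODE vM21 annotates as protein-coding (chr2:158375638-158386145, plus strand), had 2468, 2481, 2454 and 3071 CPM in mt-high cells, against 1291, 1433, 1256 and 1457 CPM in mt-low cells, a log2 difference of 0.94 ± 0.08 (SE; edgeR adjusted p = 1.28e-27) without overlap. Kcnq1ot1, the antisense noncoding RNA of the Kcnq1 locus, averaged 194 ± 23.96 CPM in mt-high cells and 63.9 ± 19.3 CPM in mt-low cells, with a log2 difference of 1.59 ± 0.10 (SE; edgeR adjusted p = 3.30e-42). It was one of the few genes with more UMIs per cell on the mt-high side (1.03 against 0.904). The sources used here do not say whether the counting used strand, so its reads cannot be told from those of Kcnq1. Malat1 and Neat1, 2 other nuclear RNAs of the list, did not pass the test, at 0.21 ± 0.09 (SE; edgeR adjusted p = 5.54e-02) and 0.06 ± 0.15 (SE; edgeR adjusted p = 7.79e-01), and were named after their values were seen.

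Genes of transcription, splicing and chromatin were higher or did not pass the test. Of 28 genes 19 were higher and none lower, with a median of 0.49, and 14 were higher depth-matched with a median of 0.23. Srrm2, a scaffold of nuclear speckles (chr17:23790532-23824741, plus strand), had 626, 600.4, 669.5 and 691 CPM in mt-high cells, against 337, 331, 286 and 325 CPM in mt-low cells. The sides did not overlap, and the log2 difference was 1.01 ± 0.07 (SE; edgeR adjusted p = 5.78e-32). Son, another speckle scaffold, Rbm25, a splicing regulator, and Kmt2a, a histone methyltransferase, had 0.97, 1.04 and 1.06, and 0.55, 0.54 and 0.52 depth-matched.

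Ion channel genes were mostly higher. Of 19 tested potassium channel genes (32 listed) 12 were higher and 2 lower (median 0.61), of 10 sodium channel and HCN genes (14 listed) 8 were higher and none lower (median 0.91), and of 10 calcium channel genes (15 listed) 8 were higher and none lower (median 0.77). Depth-matched medians were 0.21, 0.17 and 0.35, with 5, 4 and 4 genes higher and 1, 1 and none lower. Scn1a, the pore of the Nav1.1 sodium channel, had 274, 260.1, 282 and 316 CPM in mt-high cells of mice 1 to 4, against 132, 126, 127 and 128 CPM in mt-low cells. The values of mt-low cells lay close together, with all those of mt-high cells above them. Its log2 difference was 1.13 ± 0.08 (SE; edgeR adjusted p = 1.95e-31), with 0.59 (edgeR adjusted p = 7.96e-12) depth-matched.

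Kcnma1, the pore of the large-conductance calcium-activated potassium channel (chr14:23289431-24014491, minus strand), averaged 71.1 ± 12.7 CPM in mt-high cells and 24.2 ± 4.95 CPM in mt-low cells, with a log2 difference of 1.55 ± 0.15 (SE; edgeR adjusted p = 1.90e-20) and 0.91 (edgeR adjusted p = 5.64e-08) depth-matched. Cacna1a, the pore of P/Q-type calcium channels, had 1.06. Scn3a, an embryonic and neonatal sodium channel, had the largest difference of the channel genes at 2.20 ± 0.37 (SE; edgeR adjusted p = 5.75e-08), but only 0.0741 UMIs per mt-high cell and 0.0404 per mt-low cell, and it did not pass the low-count filter depth-matched. The 2 lower potassium channel genes were Kcnip1, a modulator of Kv4 channels, at -0.87 ± 0.13 (SE; edgeR adjusted p = 1.25e-09), and Kcnj10, a glial inward rectifier, at -0.56 ± 0.19 (SE; edgeR adjusted p = 9.82e-03). Kcnip1 was still lower depth-matched at -0.72 (edgeR adjusted p = 3.82e-09), whereas Kcnj10 turned to 0.15 (edgeR adjusted p = 5.35e-01).

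Glutamate receptor genes were also mostly higher. Of 9 tested genes (21 listed) 7 were higher and none lower, with a median of 0.66, or 0.14 depth-matched with 3 higher. Gria2, the AMPA receptor subunit that blocks calcium entry (chr3:80681450-80802835, minus strand), had 260.5, 263, 252 and 372 CPM in mt-high cells, against 110.2, 84.7, 89.4 and 113 CPM in mt-low cells. The lowest value of mt-high cells was more than 2 times the highest of mt-low cells. The log2 difference was 1.52 ± 0.09 (SE; edgeR adjusted p = 8.53e-48), with 0.74 (edgeR adjusted p = 5.00e-17) depth-matched. Gria3 and Gria4 had 1.03 and 0.74, and depth-matched Gria4 was at 0.23 (edgeR adjusted p = 9.41e-02).

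Calcium-binding proteins were mostly lower. Of 14 tested genes (20 listed) 8 were lower and 1 higher, with a median of -0.33, or -0.17 depth-matched with 7 of 13 lower. The higher one was Cabp1 (0.27), named after its value was seen. Pvalb, the calcium buffer parvalbumin (chr15:78191114-78206400, minus strand), had 2299.5, 2447, 2137 and 1758 CPM in mt-high cells of mice 1 to 4, against 4302, 4501, 3968 and 4146 CPM in mt-low cells. Mouse 4 had the lowest value of mt-high cells, and the sides did not overlap. The log2 difference was -0.97 ± 0.08 (SE; edgeR adjusted p = 6.10e-27), with -0.42 (edgeR adjusted p = 4.77e-09) depth-matched. Calb2, the buffer calretinin and the chief type IA marker, had 9377, 8807, 8911 and 6716 CPM in mt-high cells, against 12880.0, 11843, 14637 and 12769.5 CPM in mt-low cells, again without overlap. Its log2 difference was -0.63 ± 0.09 (SE; edgeR adjusted p = 6.43e-11), with -0.31 (edgeR adjusted p = 2.30e-04) depth-matched. B3gat1, an enzyme of glycan synthesis and a type IA marker too, was higher, at 0.61 ± 0.08 (SE; edgeR adjusted p = 3.93e-13), and depth-matched it was at 0.14 (edgeR adjusted p = 1.33e-01). The other type IA markers Rxrg, a retinoid receptor and Pcdh20, a protocadherin, did not pass the test, at -0.02 ± 0.13 (SE; edgeR adjusted p = 9.26e-01) and 0.21 ± 0.10 (SE; edgeR adjusted p = 9.28e-02).

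Synaptic and cytoskeletal genes were split. Of 29 synaptic vesicle and release genes (34 listed) 13 were higher and 8 lower, with a median of 0.10. Rab3a, a vesicle GTPase, was lower at 663 ± 157 CPM in mt-high cells and 1371 ± 62.01 CPM in mt-low cells and a log2 difference of -1.05 ± 0.08 (SE; edgeR adjusted p = 1.17e-31). Sv2a, a vesicle glycoprotein, was higher at 455 ± 26.02 CPM in mt-high cells and 258 ± 16.5 CPM in mt-low cells and 0.82 ± 0.08 (SE; edgeR adjusted p = 3.47e-22). Snap25, a SNARE protein, was lower at -0.51 ± 0.08 (SE; edgeR adjusted p = 8.85e-09), and depth-matched it was -0.12 (edgeR adjusted p = 1.84e-01). Of 27 cytoskeleton and transport genes (28 listed) 10 were higher and 8 lower, with a median of 0.06. Ank3, a scaffold of the axon initial segment and nodes, and Kif3a, a kinesin, had 0.83 and 0.73. Stmn3, a stathmin, and Tuba1a, a tubulin, had -0.85 and -0.62. Of 10 tested ion pump genes (16 listed) 5 were higher and 2 lower (median 0.25). Atp2b2, a plasma membrane calcium pump, was higher at 0.81 ± 0.08 (SE; edgeR adjusted p = 2.03e-20) and 0.31 (edgeR adjusted p = 3.62e-04) depth-matched. Fxyd6, a regulator of the sodium pump named after its value was seen, was lower at -0.46.

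Counts of the stress and death lists stand beside 23.2% higher and 22.1% lower over all genes tested. Of 26 tested immediate early and dissociation genes (30 listed) none was higher and 7 were lower (median -0.13), and 1 was lower depth-matched. Fos, the best known of them, had 522, 642, 440.0 and 474 CPM in mt-high cells, against 696, 682, 553 and 679.6 CPM in mt-low cells. The sides overlapped, and its log2 difference was -0.32 ± 0.08 (SE; edgeR adjusted p = 1.27e-04), against -0.07 (edgeR adjusted p = 4.90e-01) depth-matched. Of 20 heat shock genes 5 were higher and 9 lower (median -0.17), with the constitutive chaperone Hspa8 at -0.58 and the stress-inducible Hsp90aa1 at 0.34. Of 13 tested integrated stress response genes (19 listed) 1 was higher and 3 lower (median -0.23), and Atf4, its central transcription factor, had -0.25 ± 0.09 (SE; edgeR adjusted p = 1.09e-02). Of 12 tested apoptosis genes (20 listed) 1 was higher and 2 lower (median -0.12). These were Xiap, an inhibitor of caspases, at 0.41, and Bad and Bcl2l1, which promote and oppose cell death, at -0.73 and -0.39. Of 11 tested axonal injury genes (18 listed) 3 were higher and 4 lower (median -0.11), with Tubb2b, a tubulin, at -1.08 and Flrt3, a membrane protein of axon guidance, at 0.94. Depth-matched, 3 heat shock genes were higher and 4 lower, no integrated stress response gene was higher and 1 lower, no apoptosis gene was higher and 2 lower, and 1 axonal injury gene was higher and 1 lower.

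Among called genes with at least 50 UMIs in mt-high cells and 1 direction in 4 of 4 mice, unnamed gene models aside, Rnf121 had the largest rise. Rnf121, a membrane-bound ubiquitin ligase (chr7:102019137-102065469, minus strand), had 335, 272, 287 and 393 CPM in mt-high cells of mice 1 to 4, against 61.4, 66.95, 63.2 and 76.6 CPM in mt-low cells. The lowest value of mt-high cells was over 3 times the highest of mt-low cells, and it had 1.67 UMIs per mt-high cell and 0.923 per mt-low cell. Its log2 difference was 2.24 ± 0.09 (SE; edgeR adjusted p = 1.89e-78), with 1.01 (edgeR adjusted p = 1.81e-27) depth-matched. The next of these were Cntn5, a neuronal contactin (2.18), Pcdhb19, a protocadherin (2.15), AU041133 (2.01) and Col19a1, a collagen (1.89). They were followed by RP23-54G8.4 (1.86), Csmd1 (1.78), Vps13c (1.69), Ncapd3 (1.68), Ahi1 (1.66), Zcchc7 (1.64) and Rims2, an active zone scaffold (1.60). All 12 were still higher depth-matched, between 0.75 for Ahi1 and 1.31 for Vps13c. Pcdhb19, AU041133, Col19a1, RP23-54G8.4, Vps13c and Rims2 rest on few UMIs, with 0.0943 to 0.125 per mt-high cell. These genes and Ncapd3, at 0.170 UMIs per mt-high cell, were not tested in thinned cells. RP23-54G8.4 was led by mouse 4, with 38.7 CPM in mt-high cells against 8.40 to 18.4 CPM in the other mice.

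Among the genes with the largest falls under the same limits, with the 50 UMIs in mt-low cells, most calls were lost depth-matched. Iqsec2, a regulator of small GTPases at synapses, averaged 29.2 ± 5.62 CPM in mt-high cells and 68.1 ± 5.57 CPM in mt-low cells with a log2 difference of -1.22 ± 0.15 (SE; edgeR adjusted p = 4.29e-13) and -0.65 (edgeR adjusted p = 4.10e-06) depth-matched. Zfp335os (-1.30) and Txnl4b (-1.21) were also lower with and without matching, but rest on 0.0387 and 0.0286 UMIs per mt-high cell. The sides of Txnl4b overlapped, with 12.6 and 12.7 CPM in mt-high and mt-low cells of mouse 1. The call was lost depth-matched for Pmf1 (-1.40), Zc4h2 (-1.38), L3hypdh (-1.33), Clybl (-1.29), Wdr55 (-1.26), Smim8 (-1.26), Zmynd19 (-1.20) and Cxx1c (-1.18). These 8 genes had 0.0236 to 0.0892 UMIs per mt-high cell. Among the most abundant genes, Fth1, the ferritin heavy chain, was lower at -0.27 ± 0.09 (SE; edgeR adjusted p = 7.06e-03), and Sparcl1, a secreted matrix protein, was higher at 0.28 ± 0.08 (SE; edgeR adjusted p = 1.31e-03).

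Gene length ran along with the differences. Exonic and genomic lengths came from the GENCODE vM21 annotation of GRCm38 for 9667 of the 9722 genes (99.4%). Exonic length merges the exons of all annotated transcripts of a gene, so it need not be the length of any 1 transcript. In 5 bins of exonic length, from the shortest to the longest, the median log2 difference was -0.41, -0.14, 0.08, 0.20 and 0.43. In the shortest bin 3.21% of genes were higher and 55.5% lower, and in the longest bin 54.4% were higher and 3.41% lower. Depth-matched, the medians of the shortest and longest bins were -0.16 and 0.20. Across genes, which are not independent replicates, Spearman's rho with exonic length was 0.57 and with genomic span 0.46, and with summed UMIs it was -0.29. Among the genes that fell, Cox6a1 has 0.702 kb and Ndufab1 6.883 kb of merged exons, and which transcripts were counted was not resolved. The part of length in the differences of single genes was not tested.

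**Figure D4:**
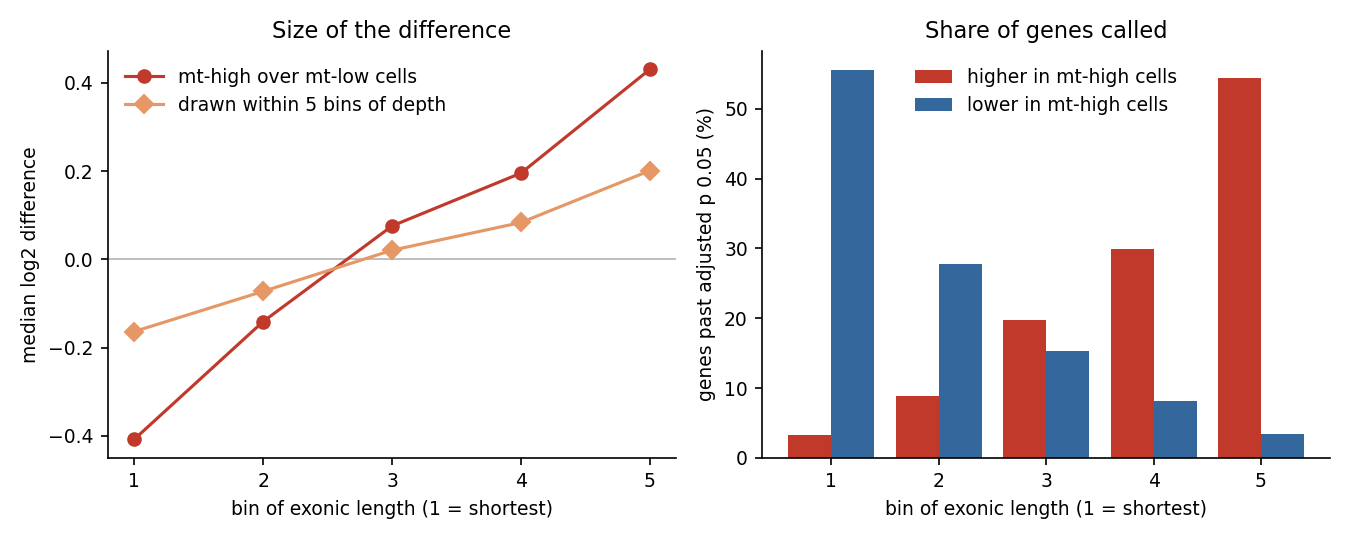
Left, median log2 difference (mt-high over mt-low cells) by bin of exonic length, without and with depth matching. Right, the percentage of genes called higher and lower in mt-high cells, where the higher share runs from 3.21% in the shortest to 54.4% in the longest bin.

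Over the 4 bins of share, from mt-low (bin 1) to mt-high (bin 4), lists of the respiratory chain changed most at the last step. The median nuclear complex I gene stood at -0.07, -0.19 and -0.76 (log2) in bins 2, 3 and 4 relative to bin 1, and 72 of the 79 respiratory genes fell at each step. Cytosolic ribosomal proteins stood at -0.10, -0.25 and -0.55, with 76 of 79 falling at each step. Meg3 averaged 2958, 2821, 3128 and 6198 CPM in bins 1 to 4, and Srrm2 314, 319.6, 377 and 632 CPM. These CPM carry scaling factors drawn over the sums of all 4 bins, so they differ slightly from the values above. Cox6a1 averaged 2758, 2623, 2329.5 and 1355 CPM and Gapdh 2069.7, 1743, 1496 and 972 CPM. The rise of Meg3 lay in the last step, whereas Gapdh was lower at each of 3 steps. Between bin 2 and bin 1, a comparison added after the data were seen, 143 (1.35%) of 10577 genes were higher and 199 (1.88%) lower, 3.23% in all.

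**Figure D5:**
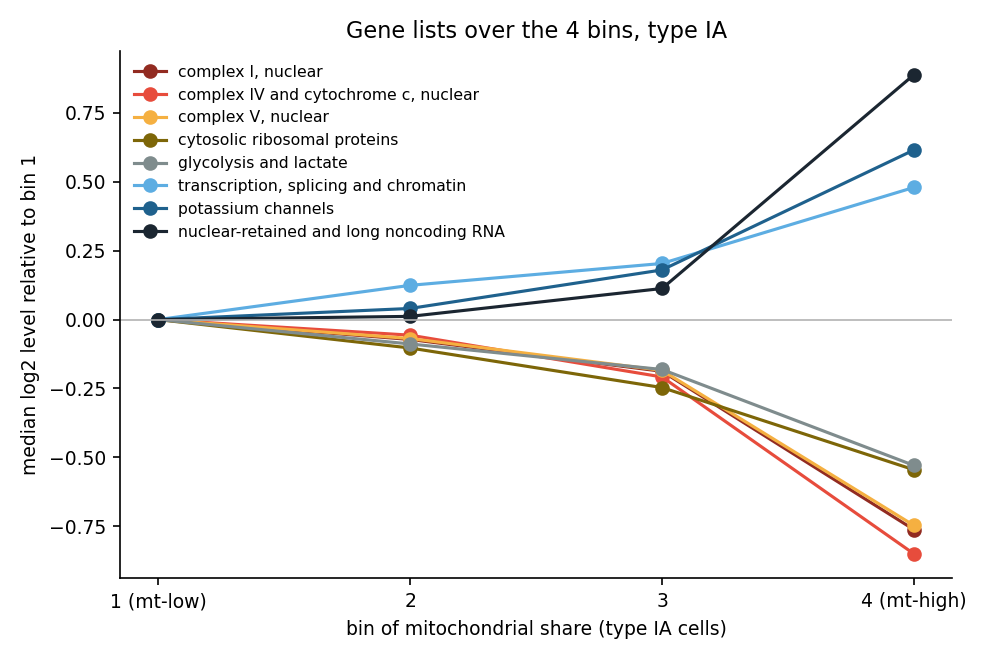
Median log2 level of the tested members of 8 gene lists in type IA, relative to mt-low cells (bin 1), over the 4 bins of mitochondrial share. The largest step of each of these lists lies between bins 3 and 4.

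The comparison was repeated in the other type I subtypes, whose mt-high cells reached lower shares, with medians of 15.3% to 18.0% in type IB and 13.0% to 14.3% in type IC. In type IB 2722 of 8993 genes (30.3%) and in type IC 3086 of 9776 genes (31.6%) were called. In a fit of the 3 subtypes together, the median respiratory chain gene had -0.76 in type IA, against -0.51 for IB and -0.46 for IC. A test of the difference between type IA and the mean of types IB and IC called 358 of 10161 genes (3.52%), 170 (1.67%) with a higher and 188 (1.85%) with a lower value in type IA. Of the 79 respiratory genes 48 were among the lower ones and none among the higher ones. Usmg5 had an interaction of -0.59 (edgeR adjusted p = 1.24e-08) and Meg3 one of 0.67 (edgeR adjusted p = 3.82e-10). Depth-matched, the test called 54 of 10650 genes (0.507%), 39 higher (0.366%) and 15 lower (0.141%), and Cox6c was the 1 respiratory gene among the lower ones. The gap in mitochondrial share was also larger in type IA, and its part in the difference was not tested. Leaving out mouse 1, 3 or 4 left 131, 166 and 123 calls.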

How the data were processed

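The authors deposited raw UMI counts, 1 table per mouse, which were used unchanged. The submitters' processing notes name Cell Ranger 2.0.1, Seurat 1.4 and mm10. How cells were filtered and doublets handled is not stated there. Subtypes come from the authors' deposited annotation, without new clusters or a doublet caller. The deposited normalized and combined tables were not used. The members and gene lists were chosen with earlier results of these data known.

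Counts were summed per mouse and side without the 13 mt- genes, which gave 8 sums, and fitted in R 4.3.3 by the quasi-likelihood test of edgeR 4.0.16, with filterByExpr, TMM scaling and mouse as a block, because both sides are cells of 1 animal. The biological coefficient of variation was 0.0558 with 3 residual degrees of freedom. The test also pools spread over genes, with a median of 379 prior degrees of freedom. Very small adjusted p therefore rest mostly on this pooled spread and less on the spread of a gene over 4 mice. Benjamini-Hochberg adjusted p under 0.05 over all genes was the threshold, and tests are two-sided. The interaction used 24 sums. CPM of single genes carry the TMM factors, marker sums do not. Directions per mouse use a prior count of 2. The fits were tested on simulated counts.

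Named genes are the 12 highest and 12 lowest log2 differences among called genes with at least 50 UMIs on the higher side and 1 direction in 4 of 4 mice, the 8 higher and 8 lower with most UMIs, up to 4 per list with the largest differences, and subtype and satellite glia markers. Unnamed Gm and Rik models are skipped. A few genes within this rule are not reported here. Alternatives were the scaling, DESeq2 1.42.0, no filter, no block, each mouse left out, sides of 50% or 10% of cells, 5 bins of depth, thinning and leaving out cells with glial UMIs. Precision is limited by counting on the mt-high side.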

Additional observations from a re-analysis of the deposited data

Results flagged for a closer look

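In single mice, 8 of the 164 named genes had a log2 difference that stood apart from the other 3 mice, where chance gives about 1 in 20. These were Zfp335os (-0.56), Sparcl1 (0.13), Pvalb (-1.24) and S100a10 (-0.99) in mouse 4, Sdhd (-0.68) and Kif3a (0.98) in mouse 3, Cacna2d2 (0.33) in mouse 2 and Tuba1a (-0.42) in mouse 1.

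For 62 named genes the difference between mt-high and mt-low cells itself differed between type IA and the mean of types IB and IC in the interaction test (edgeR adjusted p under 0.05), although the gap in mitochondrial share was larger in type IA too. Depth-matched, all 62 kept their direction and 10 their call, which were Calb2, Cox6c, Gapdh, Eno1, Cntn5, Meg3, Snhg11, Kcnq1ot1, Kif3a and Lypd1. The call was lost for the other 52, as for Rnf121 (0.30, edgeR adjusted p = 0.24) and Usmg5 (-0.20, edgeR adjusted p = 0.063). The values below are log2 interactions without depth matching, type IA minus the mean of types IB and IC. Lower values were found for the respiratory gene Ndufa4 (-0.29) and for complex I genes Ndufab1 (-0.47), Ndufa7 (-0.40), Ndufc1 (-0.43) and Ndufa11 (-0.41). Complex III genes followed with Uqcr11 (-0.43), Uqcrq (-0.42), Uqcr10 (-0.43) and Uqcrfs1 (-0.34). For complex IV the values were Cox4i1 (-0.28), Cox6a1 (-0.39), Cox7a2 (-0.40), Cox6c (-0.48) and Cox5b (-0.29), and for complex V Usmg5 (-0.59), Atp5e (-0.45), Atp5g1 (-0.43) and Atp5l (-0.42). In carbon metabolism they were Pdhb (-0.42), Mdh2 (-0.26), Sucla2 (-0.38), Idh3b (-0.33), Gapdh (-0.29) and Eno1 (-0.45). In other mitochondrial and antioxidant lists they were Slirp (-0.31), Mrps18c (-0.54), Timm8b (-0.33), Timm10 (-0.55), Tomm7 (-0.32), Gpx4 (-0.27) and Prdx2 (-0.29). Ribosomal, proteasome and chaperone genes gave Rpl27 (-0.46), Rpl10 (-0.34), Rps21 (-0.33), Psma2 (-0.41), Psmb1 (-0.30) and Cct8 (-0.46). Calb2 (-0.58) and Stmn3 (-0.26) complete the lower values.

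Higher values were found for Meg3 (0.67), Snhg11 (0.47) and Kcnq1ot1 (0.77) of the nuclear-retained list, and for Kmt2a (0.58), Rbm25 (0.33), Srrm2 (0.41) and Ppargc1a (0.32) of other lists. Channel and receptor genes gave Kcnma1 (0.66), Scn3a (1.76), Scn1a (0.47), Cacna1d (0.66), Gria2 (0.43) and Gria3 (0.36). Ank3 (0.41), Kif3a (0.59) and Atp2b2 (0.29) were higher among cytoskeleton and pump genes. Of the genes with the largest rises, Rnf121 (0.65), Cntn5 (1.30), AU041133 (1.42), Csmd1 (0.71), Ahi1 (0.62) and Zcchc7 (0.64) were included. Lypd1, a type IC marker, had 0.80.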

How the results depend on the processing

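The counts of 2252 higher and 2145 lower genes of 9722 tested moved under several settings. The number of genes tested moved too, so the counts are to be read beside it. Drawn within bins of depth, which also narrowed the gap in share, 819 of 10131 genes were higher and 976 lower. With cells thinned to a common depth, 1268 of 6549 were higher and 1258 lower. For bin 2 against bin 1 (added after the data were seen), 143 of 10577 were higher and 199 lower. Sides of 50% of cells gave 1547 higher and 1678 lower genes of 11298 tested, at a median of 47.4% of the log2 difference. Sides of 10% gave 1764 and 1724 of 6666 tested, at 143%. DESeq2 called 1084 higher and 1474 lower of the 7648 genes to which it gave an adjusted p. With library totals only, 3372 were higher and 1386 lower, with no change of sign among named genes. With each mouse left out in turn, 1770 to 2003 genes were higher and 1896 to 2002 lower. Without the replicate block, which both sides of 1 animal share, 1947 were higher and 1871 lower, and the interaction count of 358 became 44. That count was 54 within bins of depth and 123 to 341 with a mouse left out. Of 30 lists 10 had a median above that of all genes, and 8 to 10 with a mouse left out.

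Some single values changed sign. For bin 2 against bin 1 these were Zc4h2 (0.026), Meg3 (-0.058), Snhg11 (-0.0046), Psap (-0.047), Sdhc (0.0029), Uqcr10 (0.0023), Sucla2 (0.047), Fos (0.012), Bad (0.026), Cacna1a (-0.029), Unc13a (-0.086), Atp2b2 (-0.0054), Atp2b3 (-0.31) and Kcnj10 (0.14). Within bins of depth they were Dusp6 (0.029) and Kcnj10 (0.15). List medians relative to all genes changed sign for mitochondrial gene expression (-0.015 to 0.061 with a mouse left out, -0.014 thinned), mitochondrial dynamics (0.051 within bins of depth, over all members tested there), axonal injury (0.015 thinned), synaptic vesicle (-0.0050 within bins of depth) and cytoskeleton (-0.060 to 0.028 with a mouse left out). Of 162 named genes tested within bins of depth, 117 kept their call, 43 lost it and 2 changed sign. The causes were not tested. Few UMIs per mt-high cell limit the lowest genes.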

Other observations

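Long noncoding genes were also counted as a class, which by annotation does not hold Snhg11. Of 145 genes that GENCODE vM21 annotates as long noncoding and that were tested, 42 were higher and 27 lower in mt-high cells, with a median log2 difference of 0.06, and the depth-matched median was 0.0023. Protein-coding genes had a median of 0.05, with 2201 of 9491 higher and 2081 lower. Lypd1, a marker of type IC neurons, was higher in mt-high cells of type IA, at 135 ± 14.01 CPM in mt-high cells and 111 ± 39.3 CPM in mt-low cells (SD, n = 4 mice) and a log2 difference of 0.29 ± 0.10 (SE; edgeR adjusted p = 1.02e-02), with 0.34 (edgeR adjusted p = 7.09e-04) depth-matched, while the sides overlapped. In types IB and IC its values were -0.49 and -0.53. Mag, a Schwann cell myelin gene named after its value was seen, was higher at 0.70 ± 0.28 (SE; edgeR adjusted p = 3.43e-02) and 0.71 (edgeR adjusted p = 4.45e-02) depth-matched, whereas 4 of the other 5 Schwann cell markers were lower and none of them was called depth-matched.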
